A study of Mus musculus with 6 samples.

Results

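Voltage-gated calcium channels open when the membrane depolarises and let calcium into the cell, where it triggers transmitter release, shapes firing and reaches the nucleus. Each high-voltage channel has a pore subunit, a cytoplasmic beta subunit that brings the pore to the membrane and an alpha2delta subunit that raises the number of channels at the surface. Low-voltage T-type channels work with the pore alone and set how easily a sensory neuron fires. Dorsal root ganglia hold the cell bodies of sensory neurons, and N-type and P/Q-type channels carry release at their central terminals.

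Here 10 subunit genes were followed: the L-type pores Cacna1c and Cacna1d, the P/Q-type pore Cacna1a and the N-type pore Cacna1b, the R-type pore Cacna1e, the T-type pores Cacna1g and Cacna1h, and the auxiliary subunits Cacna2d1, Cacnb3 and Cacnb4. They were chosen as members of the family, and every non-control probe whose transcript accession belongs to one of them was used. This gave 20 of the 41174 probes of the array, and 8 of the 10 genes had a probe, among 17178 genes named in all. No probe could be matched to Cacna1b or Cacna1c, so the N-type pore and 1 of the L-type pores are not analysed here. Tests were limited to probes well above background on every array of one genotype or of both, and 15 probes of 7 genes met this. Both Cacna1e probes were well above background on no array, so the R-type pore has no level in either genotype. The other 3 probes left out belong to Cacna1d, and 2 of them were well above background on 1 WT array each.

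The study compared dorsal root ganglia of 3 dt27J mice with those of 3 wild-type (WT) littermate controls at postnatal day 4, an age the series describes as before the phenotype. All animals were on the C57BL/6 background and came from 2 litters. In dt27J mice Dst, which encodes the cytoskeletal linker dystonin, is mutated, and the sources used here do not say which part of it is altered. Total RNA of each animal was hybridised to 1 single-colour array, and the labels carry 2 dates: dt27J 1, dt27J 2, WT 1 and WT 2 belong to the first, dt27J 3 and WT 3 to the second. The sources used here do not tie a date to a litter. Xist and Ddx3y gave 1 male and 2 females among the dt27J animals, and 2 males and 1 female among the WT animals. Both second-date animals were female, and the part of sex in the results was not tested.

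Levels are log2 processed signals relative to the 75th percentile of their array, so 0 is the 75th percentile of that array and a difference of 1 is a factor of 2. Differences are dt27J minus WT, from a limma fit across all 26248 tested probes with genotype and date as terms. Benjamini-Hochberg adjustment was made across these probes, and the threshold was an adjusted p of 0.05. Levels of different probes are not compared, since brightness depends on the probe. Dst, the mutated gene, lay lower on every dt27J array than on every WT array on its 3 tested probes, by 2.42 to 2.68 on the log2 scale (adjusted p = 0.0341 to 0.0454). Across all tested probes 838 passed the threshold, 3.19%, with 344 higher and 494 lower in dt27J, and 7270 had an unadjusted p under 0.05. Scaled on each array's median the split was 595 higher and 404 lower, and after quantile normalization 537 and 440.

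Markers of other tissues set some arrays apart before any channel is considered. Of 16 spinal cord markers 12 were tested, and their summed signal, in units of the array's 75th percentile, was 4.16, 3.44 and 2.55 on dt27J 1, 2 and 3, against 29.4, 23.2 and 3.10 on WT 1, 2 and 3. WT 1 and WT 2 were therefore high in transcripts such as the oligodendrocyte factors Olig1 and Olig2 and the inhibitory transporter Slc32a1, while WT 3 was as low as the dt27J arrays. All 12 skeletal muscle markers were tested, and their sum was 89.2, 166.0 and 128.0 on the dt27J arrays, against 28.6, 28.3 and 97.3 on the WT arrays. The 6 fibroblast and meninges markers had sums of 573.0, 614.0 and 347.0 on the dt27J arrays, against 232.0, 209.0 and 480.0 on the WT arrays (median difference 0.85), and all 7 endothelial markers had a positive difference (median 0.78). Central neurons express many calcium channel genes, so the subunit differences are also given by date. At the second date the median difference was -0.07 for spinal cord markers and 0.20 for muscle markers, but single markers differed both ways, from -1.66 for Gpr17 to 2.03 for Olig1 and from -0.58 for Actn3 to 2.20 for Tcap. The part of the other tissues in each result was not tested.

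All 16 pan-neuronal genes, such as Tubb3 and Uchl1, were measured as well, and all had a negative difference, with a median of -0.58. Their summed signal was 685.0, 858.0 and 798.0 on the dt27J arrays, against 1010, 938.0 and 1040 on the WT arrays. Such a sum is weighted to the brightest genes, above all Uchl1. The mean log2 level of the list, relative to the WT mean, was -0.90, -0.71 and -0.33 on dt27J 1, 2 and 3. By that measure dt27J 3, not dt27J 2, was the nearest to WT. In these bulk samples, fewer neurons, less RNA per neuron and a larger share of RNA from the other tissues above cannot be told apart. Spinal cord transcripts were high on WT 1 and WT 2, and their part in the pan-neuronal differences was not tested. The mean log2 level of the pan-neuronal list, relative to the WT mean, was 0.026, -0.026 and 0.001 on WT 1, WT 2 and WT 3. Its median difference was -0.82 at the first date and -0.40 at the second.

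Over the 7 measured genes, each by its brightest tested probe, 6 had a negative difference, and the median was -0.96, against -0.05 over all tested probes. The median was -0.50 after normexp background correction. Relative to the pan-neuronal genes it was -0.31, with 5 of 7 negative and the median of all tested probes at 0.60. Of the 15 tested probes, 13 had a negative difference, beside 53.6% of all probes, and the median over the 15 was smaller, at -0.49. The dt27J arrays were all lower than the WT arrays on 5 of them, beside 16% of all probes, and 1 passed the threshold. Since 1.88% of all tested probes passed with a lower level in dt27J, a single call among 15 probes says little about the family. The unadjusted p was under 0.05 on 7 of the 15, all lower in dt27J, and on 15.7% of all probes in that direction.

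**Figure D1:**
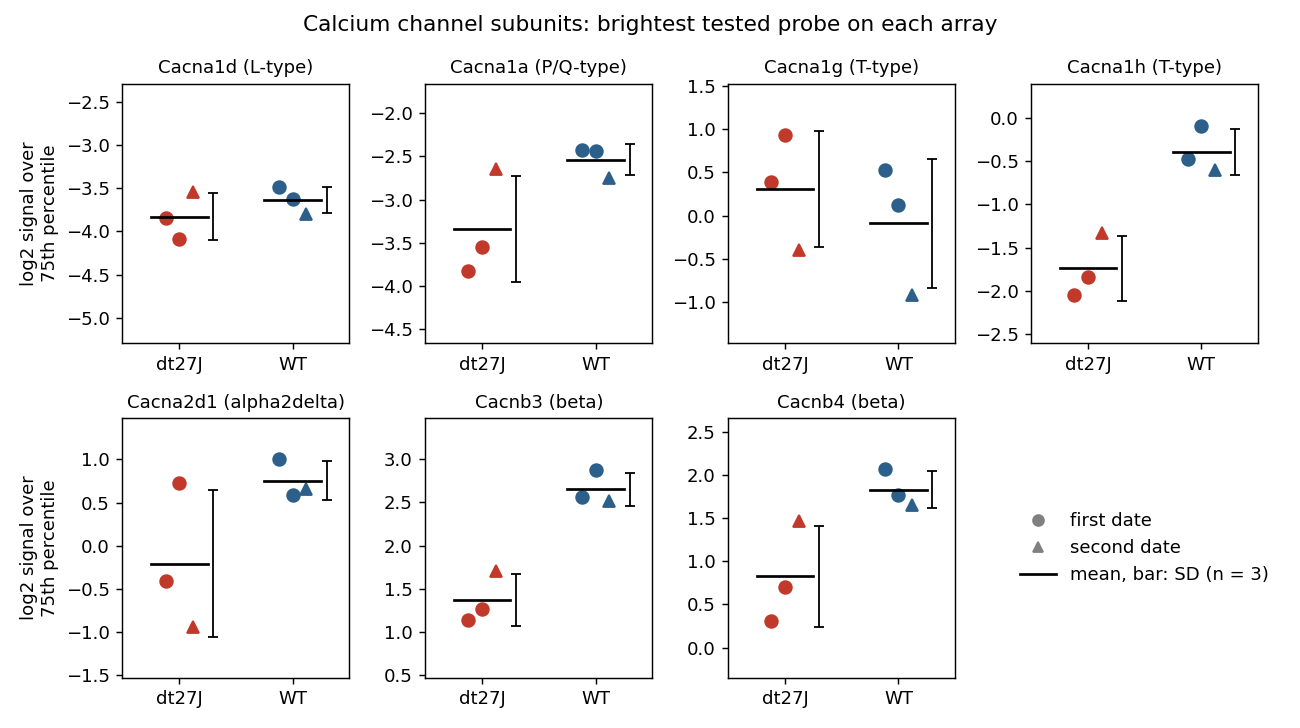
Level of the brightest tested probe of each measured gene on every array, as log2 signal over the array's 75th percentile, with circles for the first date, triangles for the second, a line at the mean and a bar of 1 SD (n = 3 per genotype). The groups do not overlap for Cacna1h, Cacnb3 and Cacnb4, and the second-date dt27J array is the highest of its genotype for these 3 genes and for Cacna1a and Cacna1d. Each panel spans the same number of log2 units.

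Cacnb3, the beta subunit that partners N-type channels in sensory neurons, was the only member past the threshold. Because it carries the single call, the 250 bases upstream of each of its annotated starts are shown, and Cacna2d1, an auxiliary subunit that did not pass, is shown for comparison. The sequences are RefSeq's for GRCm38.p6, printed 5′ to 3′ on the plus strand, on which both genes lie. Capitals mark each match of the GC box, GGGCGG or the reverse complement of it, a motif bound by Sp factors. Which start the Cacnb3 probe reads is not known from the files.
Cacnb3 first window, chr15:98632078-98632327: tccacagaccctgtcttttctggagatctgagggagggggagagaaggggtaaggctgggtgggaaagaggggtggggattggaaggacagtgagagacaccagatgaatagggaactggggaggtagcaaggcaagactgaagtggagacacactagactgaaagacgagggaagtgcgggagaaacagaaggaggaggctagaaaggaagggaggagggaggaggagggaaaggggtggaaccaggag
Cacnb3 second window, chr15:98634517-98634766: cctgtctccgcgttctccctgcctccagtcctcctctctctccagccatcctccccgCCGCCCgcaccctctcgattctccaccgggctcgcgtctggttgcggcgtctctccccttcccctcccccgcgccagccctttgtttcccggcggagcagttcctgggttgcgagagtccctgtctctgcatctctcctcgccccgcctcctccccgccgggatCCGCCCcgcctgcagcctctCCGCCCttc
Cacna2d1 window, chr5:15934441-15934690: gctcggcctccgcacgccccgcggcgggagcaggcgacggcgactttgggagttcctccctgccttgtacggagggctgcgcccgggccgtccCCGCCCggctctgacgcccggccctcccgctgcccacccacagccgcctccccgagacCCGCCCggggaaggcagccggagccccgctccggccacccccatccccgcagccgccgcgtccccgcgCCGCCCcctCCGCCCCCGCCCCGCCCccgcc
The Cacnb3 windows differ from each other in these letters. The upstream one has a GC content of 56.0% and no GC box, and the downstream one 70.4% and 3 matches. The Cacna2d1 window has a GC content of 82.4% and 6 matches. Of the 32851 windows of the same length in the table, 32.7% hold a GC box, and the median GC content is 52.4%. The cAMP response element TGACGTCA, on either strand, is in none of the 13 windows of the 7 members that have one, and in 1.55% of all windows. The same holds for TTCAGCACC, the left part of the site of the neuronal repressor Rest, which is in 0.301% of all windows. Cacna1a, Cacna1g and Cacna1h have no entry in the table. A match is only a match of letters, and so is its lack.

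Cacnb3 had levels of 1.14, 1.27 and 1.70 on dt27J 1, 2 and 3, against 2.57, 2.87 and 2.52 on WT 1, 2 and 3. Every dt27J array was lower than every WT array, and the second-date dt27J animal was the nearest to WT. It fell by 1.28 in log2 units (SE 0.23, n = 3 each), to a signal 2.43-fold lower (95% interval 1.66 to 3.57, adjusted p = 0.0472, limma). The difference was -1.51 at the first date and -0.82 at the second. WT 3, low in spinal cord markers, stood at -0.20 relative to WT 1 and WT 2 on this probe. The adjusted p lay close to the threshold and was above it in several settings: 0.061 without the date block, 0.096 with no filter on dim probes, 0.0526 after normexp background correction, and 0.188, 0.109, 0.248 and 0.165 without dt27J 1, dt27J 2, WT 1 or WT 2. Leaving out WT 1 and WT 2, the arrays high in spinal cord markers, reduces the fit to that second-date pair of arrays. Its adjusted p of 0.227 takes the spread from dt27J 1 and dt27J 2 and assumes that the lone arrays vary alike. Relative to the pan-neuronal genes the difference was -0.64 (adjusted p = 0.084), and there the median of all tested probes stood at 0.60.

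Cacnb4, the beta subunit whose loss causes ataxia and seizures in the lethargic mouse, was read by 4 probes that did not behave alike. On the brightest the levels were 0.31, 0.70 and 1.46 on dt27J 1, 2 and 3, against 2.07, 1.77 and 1.65 on WT 1, 2 and 3. The groups do not overlap, but dt27J 3 came within 0.19 of WT 3. The dt27J signal was 49.9% of WT (log2 SE 0.31, adjusted p = 0.097, limma), with differences of -1.41 at the first date and -0.19 at the second. The other 3 probes gave -0.42, -0.13 and 0.04, and on each of them dt27J 3 was the highest of all 6 arrays, at -0.19, -0.72 and -3.47. On the dimmest of them dt27J 2 was not well above background. Within the first date these probes were at -0.75, -0.64 and -0.24, and within the second at 0.24, 0.88 and 0.59. All 4 probes are annotated to the same transcript, and which other transcripts of the gene each reads is not given.

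Cacna2d1, the alpha2delta subunit that binds gabapentin and is known to rise in sensory neurons after nerve injury, had levels of -0.40, 0.72 and -0.94 on dt27J 1, 2 and 3, against 1.01, 0.59 and 0.66 on WT 1, 2 and 3. The dt27J arrays were spread wide (SD 0.85, against 0.22 among WT arrays), and dt27J 2 lay within the WT range. The difference was -0.96 (SE 0.37, adjusted p = 0.152, limma), and a second probe gave -0.48 (adjusted p = 0.36), with -0.23 at the first date and -0.97 at the second. It was the only measured gene whose brightest probe differed more at the second date than at the first on the lower side, at -1.60 against -0.64.

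**Figure D2:**
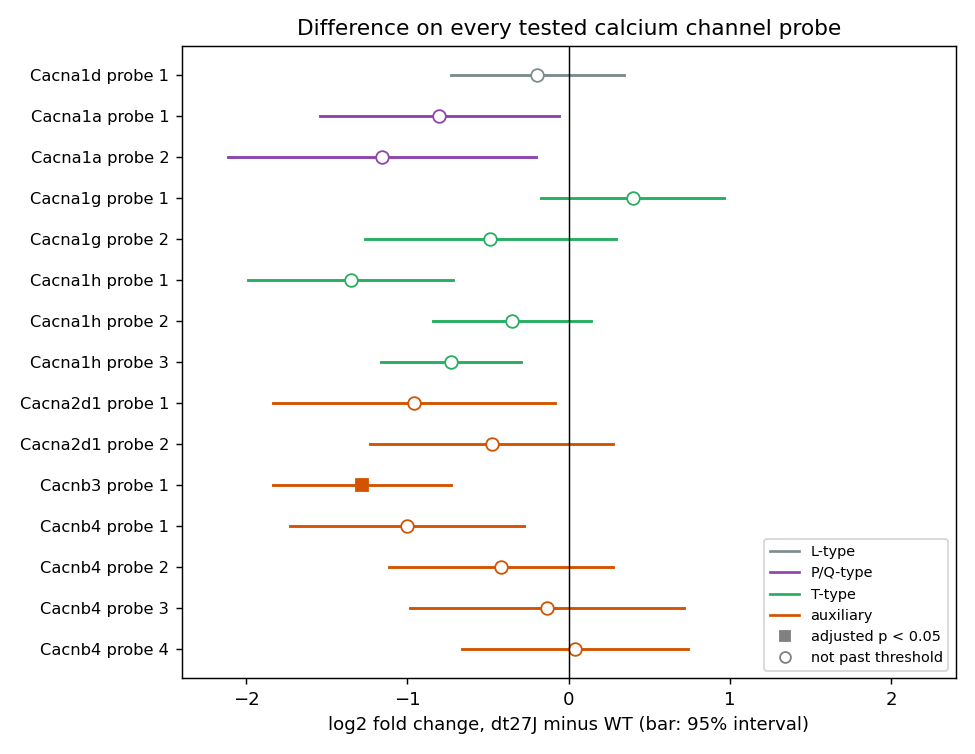
Difference between dt27J and WT on the log2 scale for each of the 15 tested probes, numbered by brightness within the gene, with a bar of the 95% interval of the limma fit. The filled square, Cacnb3, is the only probe past an adjusted p of 0.05, and the intervals of Cacna1h probes 1 and 3, both Cacna1a probes and the brightest Cacnb4 and Cacna2d1 probes also lie below 0 before adjustment.

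Cacna1h encodes the T-type pore that is most abundant in sensory neurons and is known from low-threshold mechanoreceptors and part of the nociceptors. Its brightest probe had levels of -2.06, -1.84 and -1.33 on dt27J 1, 2 and 3, against -0.48, -0.09 and -0.61 on WT 1, 2 and 3. The groups do not overlap, and dt27J 3 was the nearest to WT. The difference was -1.35 (SE 0.27, n = 3 per genotype), a signal 2.55-fold lower (95% interval 1.64 to 3.96), and it missed the threshold narrowly (adjusted p = 0.0504, limma). It passed after quantile normalization (adjusted p = 0.048) and with the authors' deposited values (adjusted p = 0.0416). The limma adjusted p was above the threshold without the date block (0.063), after normexp background correction (0.079) and with no filter on dim probes (0.103). Without dt27J 1, dt27J 2, WT 1 or WT 2 it was 0.194, 0.119, 0.248 and 0.167. Relative to the pan-neuronal genes the difference was -0.705 (adjusted p = 0.0747), with the median of all tested probes at 0.60. The dimmer probes gave -0.35 (SE 0.21, adjusted p = 0.31) and -0.73 (SE 0.18, adjusted p = 0.0687), and on both the genotypes did not overlap. These were smaller in other settings, at -0.08 and -0.10 after normexp background correction and at -0.11 and -0.21 with the authors' deposited values. At the second date the 3 probes stood at -0.72, -0.32 and -0.71, against -1.67, -0.36 and -0.74 at the first date.

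Cacna1g, the T-type pore best known from the thalamus, had no difference past the threshold on either probe. Its brightest probe had levels of 0.38, 0.93 and -0.40 on dt27J 1, 2 and 3, against 0.53, 0.12 and -0.92 on WT 1, 2 and 3. The groups overlap, and both second-date arrays were the lowest of their genotype, WT 3 by 1.24 below WT 1 and WT 2 and dt27J 3 by 1.05 below dt27J 1 and dt27J 2. The difference was 0.40 (SE 0.24, adjusted p = 0.317, limma). A dimmer probe gave -0.49 (SE 0.33, adjusted p = 0.37), so the probes differ in direction and no direction is given for the gene. The brightest probe stood at 0.33 at the first date and 0.52 at the second, and the dimmer one at -0.70 and -0.07. Relative to the pan-neuronal genes the brightest probe stood at 1.04 (adjusted p = 0.028), with the median of all tested probes at 0.60.

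Cacna1a, the P/Q-type pore that carries release at many central synapses, had levels of -3.83, -3.54 and -2.65 on dt27J 1, 2 and 3, against -2.43, -2.44 and -2.75 on WT 1, 2 and 3. Both first-date dt27J arrays were low, and dt27J 3 lay within the WT range. The difference was -0.80 (SE 0.31, adjusted p = 0.156, limma). A dimmer probe, well above background on 1 of 3 dt27J arrays and on all 3 WT arrays, gave -1.16 (SE 0.40, adjusted p = 0.126). After normexp background correction these differences were -0.40 and -0.13, and with the authors' deposited values -0.46 and -0.23. On the brightest probe the difference was -1.25 at the first date and 0.10 at the second. The dimmer probe stood at 0.11 at the second date, and both of its first-date dt27J arrays were not well above background. This dimmer probe entered the tests through the WT arrays alone, which favours a lower level in dt27J.

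Cacna1d, an L-type pore that opens at more negative voltages than Cacna1c, was dim on its 1 tested probe, with levels of -3.85, -4.09 and -3.55 on dt27J 1, 2 and 3, against -3.49, -3.62 and -3.79 on WT 1, 2 and 3. The groups overlap. The difference was -0.19 (SE 0.22, adjusted p = 0.603, limma), with a 95% interval of -0.73 to 0.34, and it was -0.41 at the first date and 0.25 at the second.

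Set by channel type, each gene by its brightest probe, the mean difference was -0.19 for the L type (Cacna1d alone), -0.80 for the N/P/Q types (Cacna1a alone), -0.48 for the T type (2 genes) and -1.08 for the 3 auxiliary subunits. Against the WT mean of its own date, dt27J 1 stood at -0.29, -1.40, -0.86 and -1.46 in that order. On dt27J 2 the values were -0.54, -1.11, -0.48 and -0.91. On dt27J 3 they were 0.25, 0.10, -0.10 and -0.87. The auxiliary mean was below WT on every dt27J array, and the L and N/P/Q values were below it on the first-date arrays and above it on dt27J 3. The auxiliary mean takes only the brightest probe of each gene. On dt27J 3 the dimmer Cacnb4 probes stood at 0.24, 0.88 and 0.59, and the dimmer Cacna2d1 probe at -0.97. The T type mean joins Cacna1h and Cacna1g, whose brightest probes had differences of opposite sign. No test of these type means was made, and with 1 gene behind each of the L and N/P/Q values they stand for single probes.

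**Figure D3:**
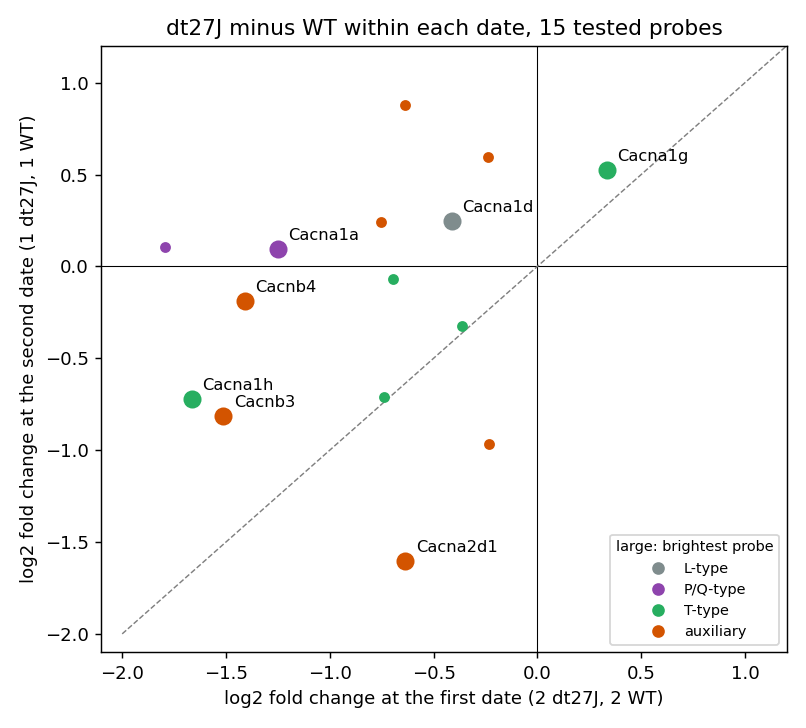
Difference between dt27J and WT at the first date (horizontal) and the second date (vertical), both on the log2 scale, for the 15 tested probes, coloured by type, with the brightest probe of each gene large and named. Points on the dashed line differ equally at both dates; 13 probes lie above it, and both Cacna2d1 probes lie below it. The small Cacna1a point at the far left rests on 2 dt27J arrays not well above background, so its place on the horizontal axis is not exact.

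Differences were more negative at the first date on 13 of the 15 probes. Of the 15 probes, 14 had a negative difference at the first date and 8 at the second, and 8 were negative at both, beside 32.3% of all tested probes. For the other counts by date no share over all tested probes was taken. Several probes read the same gene, so the probes are not independent. Over the 7 genes the median was -1.25 at the first date and -0.19 at the second, against -0.01 and -0.13 over all tested probes. In a fit with a genotype by date term, 0 of the 15 probes passed an adjusted p of 0.05 (limma, smallest 0.0665, on the dimmer Cacna1a probe, whose first-date dt27J arrays were not well above background). At an unadjusted p under 0.05 there were 5, beside 27.5% of all tested probes. The second date has 1 array per genotype. Pan-neuronal genes were also more negative at the first date, with a median of -0.82 there and -0.40 at the second, and the 6 tested nociceptor markers had -1.33 and -0.10.

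**Figure D4:**
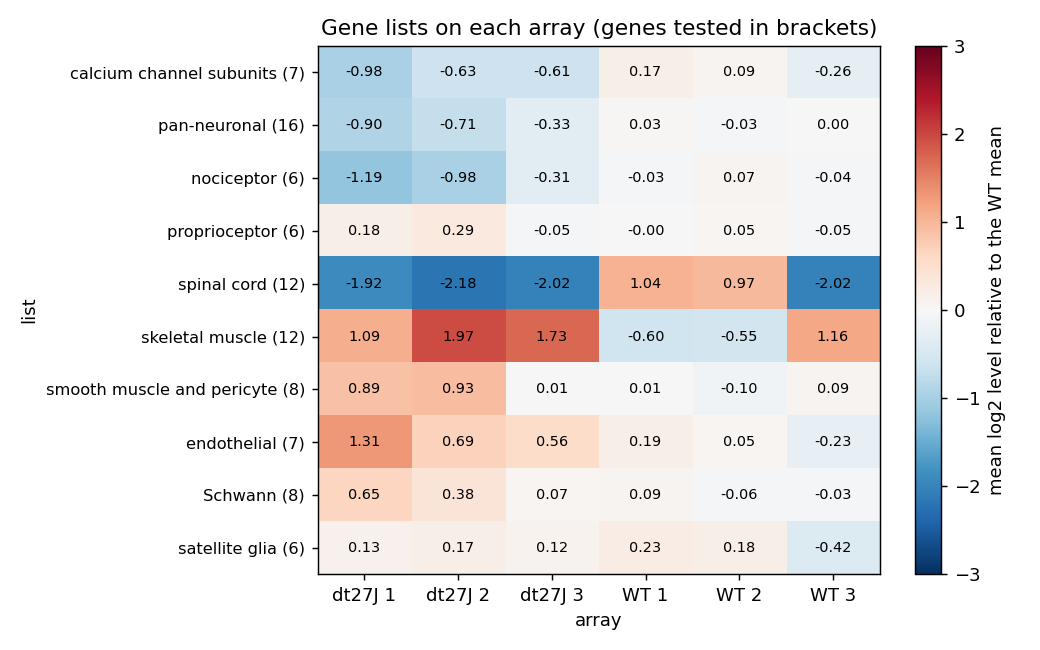
Mean log2 level of each gene list on each array relative to the mean of the WT arrays, over the brightest tested probe of each gene (number of genes in brackets). The calcium channel subunits stand at -0.98, -0.63 and -0.61 on dt27J 1, 2 and 3, beside pan-neuronal genes at -0.90, -0.71 and -0.33, and the spinal cord list is high only on WT 1 and WT 2.

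Across the other 16 genes of the family, 14 had a probe and 9 were tested. By their brightest probes 8 of the 9 had a negative difference (median -0.43), and 1 passed the threshold, where 1.88% of all tested probes passed with a lower level in dt27J. That gene was Cacng2, which encodes stargazin, an auxiliary subunit of AMPA receptors. Its tested probe had signals of 7.79, 5.43 and 14.7 on dt27J 1, 2 and 3, against 29.0, 25.7 and 45.9 on WT 1, 2 and 3. The difference was -1.90 (SE 0.19, adjusted p = 0.0341, limma) and -1.83 at the second date. The probe was well above background on dt27J 3 alone of the dt27J arrays, so the fitted size rests in part on values at background. It entered the tests through the WT arrays alone, which favours a lower level in dt27J. The other 2 Cacng2 probes were not well above background on any array.

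Cacna2d2, the alpha2delta gene mutated in the ataxic ducky mouse, was split between its probes. On 1 dim probe the signals were 3.21, 3.62 and 1.83 on dt27J 1, 2 and 3, against 28.1, 18.6 and 15.4 on WT 1, 2 and 3, and since no dt27J array was well above background the decrease was at least 2.13-fold (adjusted p = 0.0376, limma). A second probe had signals of 8.76, 12.1 and 36.4 on the dt27J arrays, against 74.9, 63.2 and 87.3 on the WT arrays, and fell by 2.22 on the log2 scale (SE 0.36, adjusted p = 0.0451, limma). On this probe dt27J 1 was not well above background, so the fitted size rests in part on a value at background. At the second date the probe stood at -1.45. Both of these probes entered the tests through the WT arrays alone, which favours a lower level in dt27J. The brighter pair of probes, with signals between 488.0 and 3130, stood at -0.75 (adjusted p = 0.272) and 0.22 (adjusted p = 0.537), so no direction is given for the gene as a whole. Cacng7, a relative of stargazin, stood at -0.94 (SE 0.20, adjusted p = 0.0572), and at -0.89 at the second date. Cacna1s, the L-type pore of skeletal muscle, was chosen after its values were seen. Its levels were 0.242, 1.193 and 0.275 on dt27J 1, 2 and 3, against -1.264, -1.423 and 0.335 on WT 1, 2 and 3. As in the muscle list, WT 1 and WT 2 were the lowest, but unlike there WT 3 stood above dt27J 3. The Cacna1s difference was 2.06 at the first date and -0.06 at the second.

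Among 23 partners and regulators of the channels, 21 were tested and 13 had a negative difference by their brightest probes (median -0.45). Gem, a small GTPase that binds beta subunits and lowers channel activity, rose by 1.40 on the log2 scale (SE 0.21, adjusted p = 0.0431, limma) and was the only one of these brightest probes to pass, where 1.31% of all tested probes passed with a higher level in dt27J. Its difference was 1.23 at the first date and 1.73 at the second. A dimmer of the probes of Gabbr1, a GABA-B receptor subunit that inhibits N-type channels, fell by 1.68 (SE 0.28, adjusted p = 0.0454, limma). Of all tested probes, 1.88% passed with a lower level in dt27J. The brightest probe of Gabbr1 stood at -0.77 (adjusted p = 0.136). Its remaining tested probe stood at -1.16 (adjusted p = 0.0853). The channel-binding membrane fusion protein syntaxin, Stx1a, stood at -1.22 (adjusted p = 0.0556) and the adaptor Stac2 at -1.69 (adjusted p = 0.0717). At the second date the Gabbr1 probes stood, in that order, at -1.39, -0.39 and -0.33, Stx1a at -0.65 and Stac2 at -0.34.

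Of 12 effectors of calcium entry, 11 were tested and 8 had a negative difference (median -0.36). Kcnn1, a potassium channel opened by calcium, fell by 1.65 (SE 0.25, adjusted p = 0.0431, limma), -1.88 at the first date and -1.21 at the second. It was the only one of these brightest probes to pass, where 1.88% of all tested probes passed with a lower level in dt27J. A dim probe of the kinase gene Camk2a, detected above background in WT alone, was lower in dt27J by at least 2.27-fold (adjusted p = 0.048, limma). It entered the tests through the WT arrays alone, which favours a lower level in dt27J. The brightest Camk2a probe stood at -1.17 (adjusted p = 0.102). The calcium-dependent kinase gene Camk4 stood at -1.04 (adjusted p = 0.0573) and the potassium channel gene Kcnn2 at -1.10 (adjusted p = 0.0644). At the second date the brightest Camk2a probe stood at -0.07, Camk4 at -0.69 and Kcnn2 at -0.39.

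The named genes outside the family whose pattern over the 6 arrays was most like the mean of the 7 measured members were the ubiquitin ligase gene Lnx1 (Pearson r = 0.998), Phyhipl (r = 0.997) and the ubiquitin ligase gene Mycbp2 (r = 0.995). They were picked as the highest of all tested named probes, so such values are a description of these arrays. Their differences were -1.45, -1.15 and -0.39, with adjusted p values of 0.0572, 0.0572 and 0.237 (limma).

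**Figure D5:**
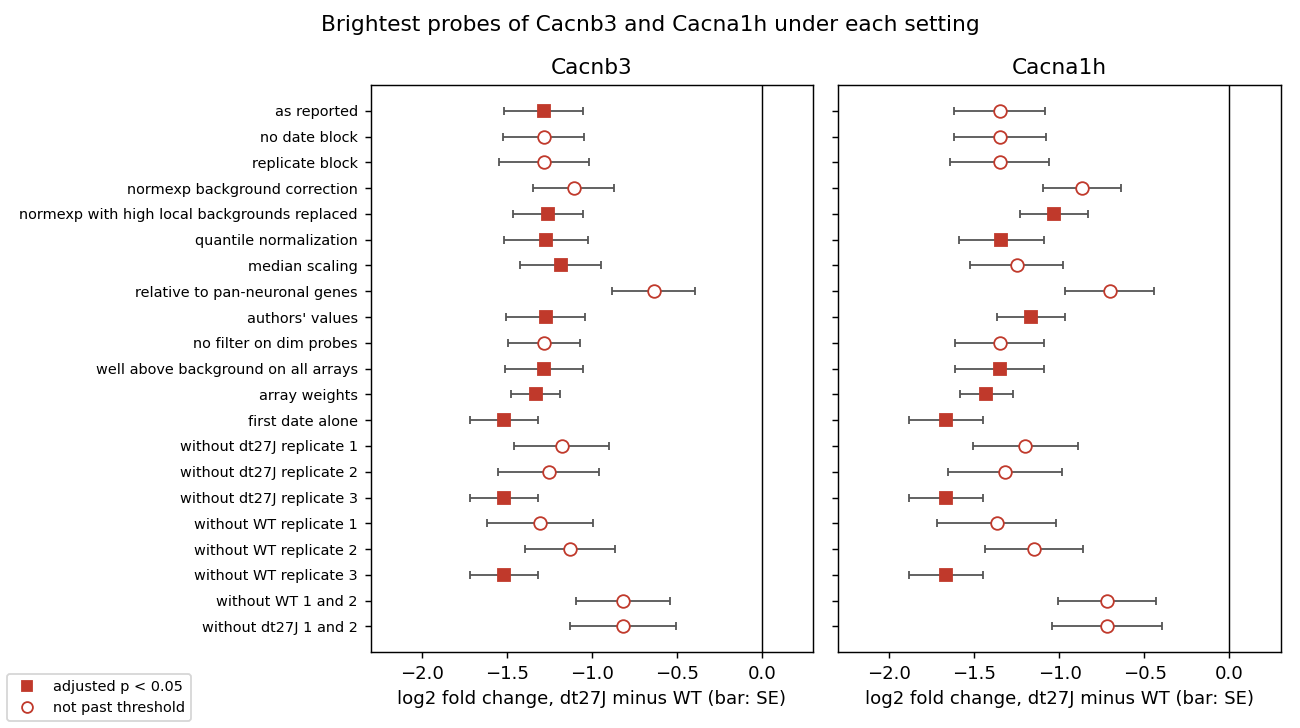
Difference between dt27J and WT (log2, bar of 1 SE) on the brightest probe of Cacnb3 and of Cacna1h with each way of processing and with arrays left out, filled squares marking an adjusted p under 0.05. All values lie below 0 in both panels, between -1.51 and -0.64 for Cacnb3 and between -1.67 and -0.70 for Cacna1h, while the call comes and goes for both.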

How the data were processed

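The 6 arrays were single-colour Agilent arrays labelled with Cy3 from 300 ng of RNA, and the number of arrays limits the precision. Agilent Feature Extraction 10.5.1.1 gave the deposited intensity values, per the submitters' processing notes. Per the file headers, background was subtracted and spatial trends were removed, with no normalization between arrays. The authors also deposited log2 values, which are centred on each probe's median. Their column medians lie between -0.0041 and 0.0053, their slopes against the centred scanner values are 0.927 to 0.98, and how they normalized between arrays is unknown here.

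Outlier and control spots were left out, spots of a probe were averaged, and log2 processed signals, scaled to the 75th percentile of their array, were fitted with limma 3.58.1 in R 4.3.3 (3 residual and 3.74 prior degrees of freedom). The fit was checked on simulated data. No spot was saturated. Where no array of a genotype rose above background, a bound is given, taken against the higher of its own value and the lowest value well above background on each dim array. Probes were named by accession through RefSeq's GRCm38.p6 table, and 73.8% of tested probes have a name. The array's annotation is of another build, so gene coordinates are not given. The members, the gene lists and the tests were chosen with earlier results of these data known. The rule names every member probe, list genes past the threshold or with the 3 smallest p, and the 3 genes of the most similar pattern. Alternatives were other blocks, backgrounds, scalings, filters and weights, the authors' values and left-out arrays.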

Additional observations from a re-analysis of the deposited data

How the results depend on the processing

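Array number and signals near background limit these data: calls lie close to the threshold, and the Cacna1e and dimmer Cacna1d probes give no level. Of 838 probes called overall and 1 of the 7 member genes, the counts became 14 and 0 without the date block, 382 and 0 after normexp background correction, 1370 and 2 with its high local backgrounds replaced, 6850 and 1 (Cacna1g, higher) relative to the pan-neuronal genes, 0 and 0 with no filter on dim probes (8485 probes had an unadjusted p under 0.05), 12199 and 6 with array weights, whose estimate did not converge, and 6805 and 4 (Cacna1a, Cacna1h, Cacnb3 and Cacnb4) with the first date alone. They were 2 members (Cacna1h and Cacnb3) after quantile normalization, with the authors' values and over probes well above background on all arrays. Leaving out each array gave 0 to 6805 probes and 0 to 4 members, with 0 probes (limma) without dt27J 1 (4475 unadjusted) or WT 2 (4990 unadjusted), 1 without WT 1 and 168 without dt27J 2; a lone second-date array is absorbed by the date term, so leaving out WT 3 or dt27J 3 repeats the first date. Leaving out pairs, chosen after the data were seen, gave 0 and 0 without WT 1 and 2 (5538 unadjusted) and 2604 and 1 (Cacna2d1) without dt27J 1 and 2; both give the difference of the lone second-date arrays, with the spread from the remaining first-date pair, assumed to hold for them. Negative were then 4 of 7 members (median -0.19).

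The replicate numbers did not pair the samples (correlations of deviations 0.219, -0.152 and 0.0625), and with a replicate block the counts were 2 and 0. Relative to the pan-neuronal genes the type means were 0.45 for L, -0.16 for N/P/Q, 0.17 for T and -0.44 for the auxiliary subunits. After normexp N/P/Q was -0.40, and -0.36 with high local backgrounds replaced. The means moved without either pair to 0.25 for L and 0.10 for N/P/Q. Without either pair the sign turned on Cacna1d (0.25), Cacna1a (0.10 and 0.11) and Cacnb4 (0.24 and 0.88). It also turned relative to the pan-neuronal genes on Cacna1d (0.45), dimmer probes of Cacna1g (0.16), Cacna1h (0.30) and Cacna2d1 (0.17) and Cacnb4 (0.23 and 0.51). The dimmest Cacnb4 probe turned to -0.02 after normexp, -0.36 with array weights and -0.24 with the first date alone, and with single arrays left out it ranged from -0.24 to 0.34 and the third Cacnb4 probe from -0.64 to 0.17. The causes were not tested. Cacnb3 stayed negative in all settings run.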
